A study of Mus musculus with 6 samples.

Results

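The Ms4a genes encode small proteins that span the membrane several times and sit mostly on leukocytes. The 8 genes described here were taken by name from the count tables of 6 mouse livers, out of 24982 genes listed. They are Ms4a1, Ms4a4a, Ms4a4b, Ms4a4c, Ms4a6b, Ms4a6c, Ms4a6d and Ms4a7. The choice was made with earlier results of these data known, so counts over the 8 are not counts over an unselected set. Ms4a4d and Ms4a8a were also tested, are not among the 8, and are given further below. The livers came from male C57BL/6NJ mice given, for 54 weeks, either high fat food plus sugar water (labelled "High fat - high sugar diet", here HFHS, n = 3) or chow (n = 3). All mice shared strain and sex, and the labels name no genetic change. The series presents the diet as a model of progression from steatohepatitis, an inflamed fatty liver, to hepatocellular carcinoma, and its labels do not mention tumours. PolyA RNA of whole liver was sequenced, with 18936877, 20585366 and 17647882 gene counts in HFHS replicates 1, 2 and 3, and 20005873, 19246476 and 16565335 in chow replicates 1, 2 and 3.

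The family takes its place in immunology from Ms4a1, which encodes CD20 on B cells, the target of therapeutic antibodies. Other members act beside receptors in the membrane and adjust their signalling. Ms4a4a, Ms4a4c, Ms4a6c, Ms4a6d and Ms4a7 are known from monocytes and macrophages, Ms4a4b from T and NK cells, and Ms4a6b from both T cells and macrophages. In a resting liver the macrophages are mainly Kupffer cells, which line the sinusoids, and monocytes enter from blood when the liver is inflamed.

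The 17 Ms4a symbols of the tables lie in one cluster of 679 kb on chromosome 19, from 10962293 to 11640851 in GRCm38, the assembly that mm10 denotes. Ms4a1 (11249675 to 11266241), Ms4a7 (11321039 to 11336146) and Ms4a6d (11586604 to 11604849) are read from the minus strand. Ms4a4a (11375523 to 11392790), Ms4a4c (11404770 to 11427246), Ms4a4b (11443553 to 11467055), Ms4a6c (11469366 to 11482192) and Ms4a6b (11516512 to 11531256) follow each other on the plus strand. Some members share stretches of sequence with each other, which bears on how reads were divided among them. Of all stretches of 50 bases in annotated transcripts, 10.5% in Ms4a6c, 8.19% in Ms4a4c, 3.57% in Ms4a6b, 2.54% in Ms4a6d, 2.40% in Ms4a4b, 1.15% in Ms4a1, 0.306% in Ms4a7 and 0% in Ms4a4a also occurred in another gene. Ms4a6c shared 117 of its 2001 such stretches with Ms4a6b, and Ms4a4c shared 135 of 1747 with Ms4a4b. Other matches lay outside the family, such as 66 stretches of Ms4a6c in Prdm11, so the percentages do not measure likeness between members alone. Reads from these stretches could have been set aside or split by the counting, so the levels of Ms4a6b, Ms4a6c, Ms4a4b and Ms4a4c are uncertain to that extent. Ms4a6c also shares 1088 exon bases with a transcript on the other strand, BE692007, and no source used here says if the counting used strand.

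**Figure D1:**
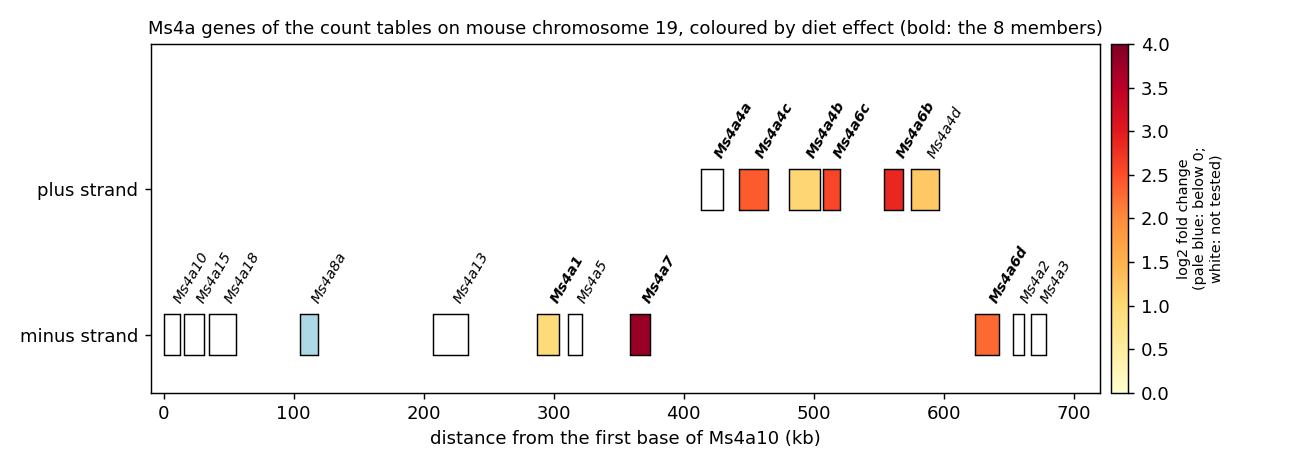
The Ms4a genes of the count tables along chromosome 19, drawn to scale as distance in kb from the first base of Ms4a10, with the plus strand above the minus strand. Colour gives the log2 fold change of HFHS over chow; Ms4a7 is darkest at 3.79, genes in white were not tested, and Ms4a8a in pale blue was below 0 at -0.54.

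Likeness between members can be seen in the promoters. RefSeq's table (GRCm38.p6, 250 bases before to 50 after each gene start) held 6 of the 8 members, all but Ms4a1 and Ms4a6d. The sequences below are those of Ms4a7, for its diet effect, and of the pairs Ms4a6c with Ms4a6b and Ms4a4c with Ms4a4b. Capitals mark matches on either strand to GAGGAA (of the type bound by PU.1, a myeloid and B cell factor of the ETS family), GGAAGT (an ETS core, which can share letters with GAGGAA), the interferon response element, TGANTCA (AP-1) and ATGCAAAT (octamer). GGAAGT was added to the search after the sequences had been seen.
Ms4a7 chr19:11336097-11336396, minus strand: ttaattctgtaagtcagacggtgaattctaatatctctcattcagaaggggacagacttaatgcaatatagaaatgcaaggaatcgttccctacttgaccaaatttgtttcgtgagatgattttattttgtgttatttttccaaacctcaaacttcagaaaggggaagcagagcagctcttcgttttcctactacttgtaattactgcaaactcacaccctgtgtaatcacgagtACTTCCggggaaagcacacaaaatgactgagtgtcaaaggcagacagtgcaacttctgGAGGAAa
Ms4a6c chr19:11469118-11469417, plus strand: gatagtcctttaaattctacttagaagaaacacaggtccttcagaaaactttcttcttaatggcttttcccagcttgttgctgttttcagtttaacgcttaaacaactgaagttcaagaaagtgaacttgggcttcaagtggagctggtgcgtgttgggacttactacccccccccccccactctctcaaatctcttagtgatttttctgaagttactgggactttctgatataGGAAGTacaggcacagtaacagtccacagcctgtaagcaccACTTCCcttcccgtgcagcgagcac
Ms4a6b chr19:11518309-11518608, plus strand: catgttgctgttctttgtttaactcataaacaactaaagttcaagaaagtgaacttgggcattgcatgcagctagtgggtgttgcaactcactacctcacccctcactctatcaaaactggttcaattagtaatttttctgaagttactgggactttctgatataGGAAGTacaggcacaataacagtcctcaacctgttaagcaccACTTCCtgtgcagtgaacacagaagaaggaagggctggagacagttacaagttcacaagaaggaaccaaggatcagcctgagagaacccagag
Ms4a4c chr19:11407411-11407710, plus strand: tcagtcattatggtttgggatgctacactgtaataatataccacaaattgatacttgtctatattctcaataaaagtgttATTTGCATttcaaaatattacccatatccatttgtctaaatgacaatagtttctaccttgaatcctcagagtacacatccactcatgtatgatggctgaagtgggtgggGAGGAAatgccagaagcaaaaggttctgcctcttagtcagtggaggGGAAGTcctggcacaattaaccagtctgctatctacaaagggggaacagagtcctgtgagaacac
Ms4a4b chr19:11443308-11443607, plus strand: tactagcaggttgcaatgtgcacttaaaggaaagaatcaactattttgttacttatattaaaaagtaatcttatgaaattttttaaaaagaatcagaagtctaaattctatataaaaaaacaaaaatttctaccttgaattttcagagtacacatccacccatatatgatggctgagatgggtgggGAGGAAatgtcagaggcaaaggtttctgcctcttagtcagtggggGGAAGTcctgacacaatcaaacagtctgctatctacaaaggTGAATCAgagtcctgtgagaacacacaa

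The windows of Ms4a6c and Ms4a6b aligned over 220 bases with 85.9% identity and shared an unbroken run of 48 bases. Those of Ms4a4c and Ms4a4b aligned over 282 bases with 80.9% identity. GGAAGT lay in 5 of the 6 windows held and in 23.8% of all 32851 promoter windows. These shares cannot be compared as a test, because GGAAGT was picked after the windows had been seen and the paired windows are not independent. The match began 15 bases before the start in Ms4a7 and Ms4a4c, 16 in Ms4a6c and 19 in Ms4a4b. In Ms4a6b the nearest match began 43 bases before it. GAGGAA lay in 3 of the 6 windows, those of Ms4a7, Ms4a4c and Ms4a4b, against 28.3% of all; in Ms4a7 it lay after the start. The interferon motif was in 0 of the 6, against 3.44% of all. The AP-1 motif was in Ms4a4b only of these 6 windows, against 7.81% of all, and the octamer in Ms4a4c only, against 1.74%. RefSeq lists another start for Ms4a7, not printed or counted among the 6, whose window held an AP-1 match. These matches are descriptions of letters and not of bound sites.

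Levels are given as CPM, that is counts scaled to TMM-adjusted library size, and the effect of diet was tested by quasi-likelihood in edgeR over the 12949 genes that passed a filter on low counts. Of all tested genes, 11.0% were higher and 3.61% lower in HFHS livers at a Benjamini-Hochberg adjusted p under 0.05, with a median log2 fold change of -0.02. Of the 8 members, 4 were higher (Ms4a7, Ms4a6b, Ms4a6c and Ms4a6d), 0 were lower, 3 did not pass the test and Ms4a4a did not pass the filter. In 7 of the 8, all but Ms4a4b, every HFHS liver was above every chow liver, which held for 21.5% of tested genes. By kind, 3 of the 5 monocyte and macrophage members were higher and 0 of the 2 lymphocyte members. In the lymphocyte pair 1 gene, Ms4a1, had an unadjusted p under 0.05, and DESeq2 and limma-voom also called 0. Ms4a7, Ms4a4c and Ms4a6b passed the filter only through the HFHS livers, while Ms4a1, Ms4a4b, Ms4a6c and Ms4a6d reached its level in every chow liver as well. These are whole-liver values, in which more cells of a type and more RNA per cell cannot be told apart.

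All 8 members were highest, among HFHS livers, in replicate 2. That library stood apart from the others of its group, with a Pearson correlation across genes of 0.960 and 0.956 with replicates 1 and 3, against 0.982 between those. Among chow livers, replicate 1 was highest for 7 of the 8 members, all but Ms4a1.

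Ms4a7, a macrophage gene, differed most. It was at 7.49, 14.9 and 5.25 CPM in HFHS replicates 1, 2 and 3, and at 1.00, 0.495 and 0.471 CPM in chow replicates 1, 2 and 3. Every HFHS liver lay several-fold above every chow liver. The counts behind these levels were 145, 388 and 94 in HFHS livers and 18, 9 and 7 in chow livers. The log2 fold change was 3.79 ± 0.51 (SE; edgeR adjusted p = 0.0101), which is 13.9-fold. Ms4a7 had the 48th largest rise of the 12949 genes tested. It entered this ranking only through the HFHS livers, and genes that do so tend to have large rises.

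The 3 Ms4a6 genes lie in the same end of the cluster. Ms4a6c, a gene of monocytes and macrophages in mice, had the highest mean CPM of the 8 members in both diets. It was at 10.3, 23.5 and 10.4 CPM in HFHS livers and at 3.89, 1.43 and 2.02 CPM in chow livers, with no overlap between the diets. It was higher by 2.59 ± 0.48 on the log2 scale (SE; edgeR adjusted p = 0.0186). Ms4a6d, whose protein pairs with the receptor Vsig4 on mouse macrophages, was at 5.47, 15.7 and 6.92 CPM in HFHS livers and at 2.83, 1.59 and 1.35 CPM in chow livers. The diets did not overlap, and the log2 fold change was 2.28 ± 0.48 (SE; edgeR adjusted p = 0.0241). Ms4a6b, which in mouse T cells associates with the costimulatory receptor GITR, was at 2.79, 9.81 and 3.57 CPM in HFHS livers and at 1.17, 0.385 and 0.673 CPM in chow livers. Here too every HFHS liver lay above every chow liver, and the log2 fold change was 2.86 ± 0.62 (SE; edgeR adjusted p = 0.0257).

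The myeloid Ms4a4 genes were low in chow livers. Ms4a4c, a monocyte gene in mice, was at 1.24, 4.46 and 1.73 CPM in HFHS livers and at 0.834, 0.0550 and 0.538 CPM in chow livers, the second chow value being a single count. The diets did not overlap, but the spread was wide, and the log2 fold change of 2.39 ± 0.78 (SE) did not pass (edgeR adjusted p = 0.0798). Ms4a4a, whose protein joins the fungal receptor dectin-1 on macrophages, had 20, 56 and 6 counts in HFHS livers and 5, 0 and 1 in chow livers. These correspond to 1.03, 2.15 and 0.335 CPM against 0.278, 0 and 0.0673 CPM, so HFHS replicate 3 lay little above the first chow liver. The count of 0 allows up to 0.165 CPM, taking 3 counts as the floor, which covers counting error only. With no filter on low counts, the log2 fold change of Ms4a4a was 3.26 ± 0.95 (SE) and did not pass (edgeR adjusted p = 0.0602).

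The lymphocyte members showed smaller differences. Ms4a1 (CD20) was at 1.19, 1.46 and 1.40 CPM in HFHS livers and at 0.667, 0.660 and 0.740 CPM in chow livers. Its values were tight within each diet and did not overlap, yet rested on 23, 38 and 25 counts in HFHS livers and on 12, 12 and 11 in chow livers. The log2 fold change of 0.97 ± 0.29 (SE) did not pass (edgeR adjusted p = 0.0633). It passed when libraries were scaled by size only (1.24 on the log2 scale, edgeR adjusted p = 0.0486). Ms4a4b, a gene of T and NK cells, was at 1.08, 3.04 and 1.00 CPM in HFHS livers and at 1.33, 0.605 and 0.606 CPM in chow livers. The diets overlapped, since chow replicate 1 lay above HFHS replicates 1 and 3, and its difference was 1.02 ± 0.56 on the log2 scale (SE; edgeR adjusted p = 0.249), or 0.30 without HFHS replicate 2.

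**Figure D2:**
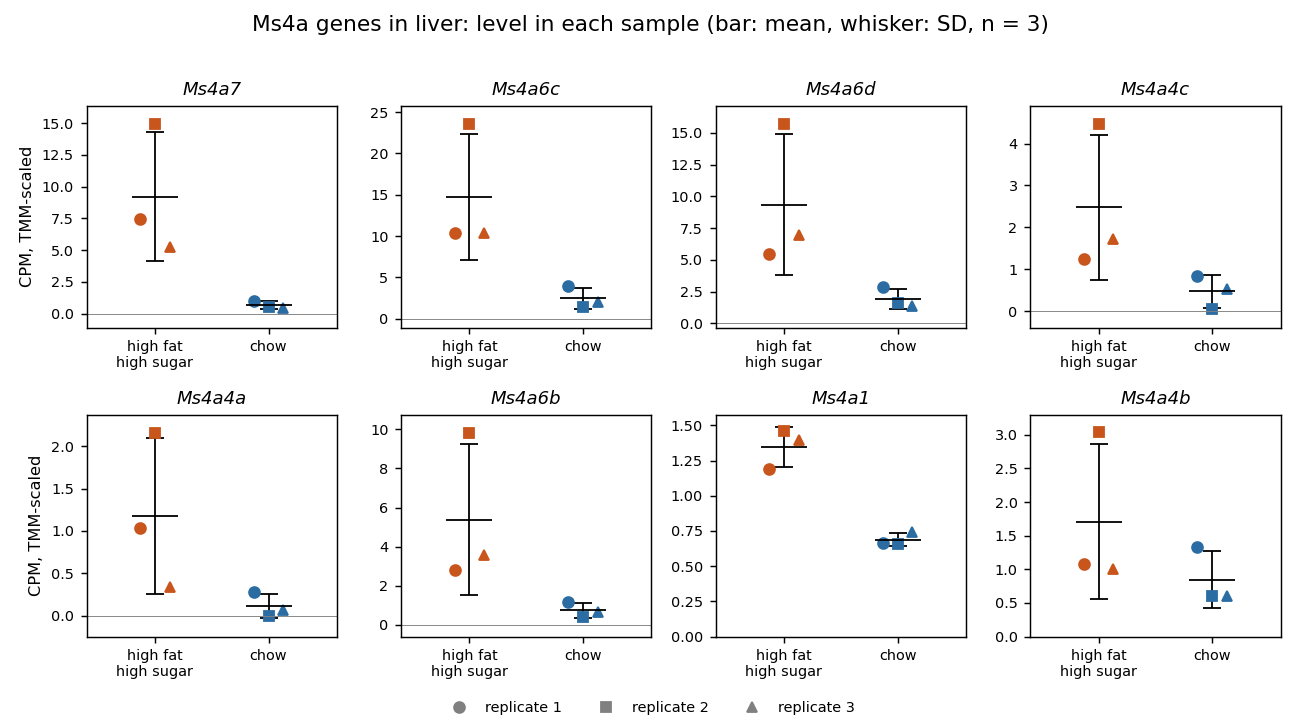
CPM (TMM-scaled, vertical axis, one scale per gene) of the 8 members in HFHS livers (orange) and chow livers (blue). Symbols are replicates 1, 2 and 3, the bar is the mean and the whisker the SD (n = 3). HFHS replicate 2 is the highest point in every panel, and the diets overlap in the panel of Ms4a4b only.

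The calls rested on few libraries. Without HFHS replicate 2 all 4 called members still passed, with log2 fold changes of 3.26 for Ms4a7, 2.08 for Ms4a6c, 1.68 for Ms4a6d and 2.10 for Ms4a6b. Without chow replicate 2 only Ms4a7 of the 8 passed (3.61, edgeR adjusted p = 0.0444), and without chow replicate 3 edgeR called 0 members higher and 4 genes of all, with 7 members at an unadjusted p under 0.05.

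Per kilobase of annotated exon, Ms4a6c and Ms4a6d had the highest levels of the 8 members in both diets. Ms4a4d, outside the 8, averaged 5.12 ± 1.11 CPM per kb in HFHS livers and 2.20 ± 0.56 in chow livers (SD, n = 3). It lay above both genes in every chow liver. In HFHS livers Ms4a6c averaged 7.19 ± 3.71 CPM per kb and Ms4a6d 5.40 ± 3.19 CPM per kb (SD, n = 3). Next in HFHS livers was Ms4a7 at 2.07 ± 1.14 CPM per kb, and its values overlapped those of Ms4a6d. Ms4a4c (1.41 ± 0.99), Ms4a4a (1.40 ± 1.10) and Ms4a6b (1.20 ± 0.86) followed, and their ranges overlapped each other and that of Ms4a7. Ms4a1 (0.218 ± 0.023) and Ms4a4b (0.195 ± 0.131) came last. In every HFHS liver both lay below all values of the other 6 members, and their ranges overlapped. With the longest transcript as length they were not below all those values. The Ms4a1 mean of 0.438 CPM per kb then lay above Ms4a4a in HFHS replicate 3 (0.401). In chow livers Ms4a6c averaged 1.19 ± 0.63 and Ms4a6d 1.11 ± 0.46 CPM per kb, and the other 6 members lay between 0.0966 CPM per kb for Ms4a4b and 0.272 for Ms4a4c. In chow livers Ms4a7 had rank 5 of the 8, at 0.147 ± 0.067 CPM per kb. Of the summed level per kb of all members, Ms4a7 held 13.2%, 10.5% and 9.24% in HFHS livers and 4.42%, 5.50% and 4.08% in chow livers. The lymphocyte pair held 2.47%, 1.83% and 2.66% in HFHS livers and 5.11%, 8.69% and 7.27% in chow livers.

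The 2 kinds of member were compared within each liver, where depth and scaling cancel. The log2 ratio of Ms4a7 to Ms4a4b counts was 2.79, 2.30 and 2.38 in HFHS livers and -0.42, -0.29 and -0.36 in chow livers. In counts not adjusted for gene length, Ms4a7 was thus several-fold above Ms4a4b in every HFHS liver and below it in every chow liver. Which gene is higher depends on length, so only the change of the ratio between diets is read. Per kilobase of annotated exon, Ms4a7 was at 0.225, 0.111 and 0.106 CPM per kb in chow livers. Ms4a4b was lower there, at 0.152, 0.0689 and 0.0690 CPM per kb. The difference in the ratio between diets was 2.85 for Ms4a7 over Ms4a4b and 2.80 for Ms4a7 over Ms4a1. For Ms4a6c it was 1.68 over Ms4a4b and 1.64 over Ms4a1, and for Ms4a6d 1.28 and 1.24. For Ms4a4c it was 1.95 and 1.90, and 0.91 for both with 0.5 CPM added to both genes. In 7 of the 8 pairs every HFHS liver lay above every chow liver, and in Ms4a4c over Ms4a1 the diets overlapped. The pairs reuse the same genes over the same livers and are not independent, and the share over all gene pairs was not computed. Ms4a7 and Ms4a4c passed the filter on low counts only through the HFHS livers. A two-sided exact permutation test gave p = 0.1 in those 7 pairs (0.114 after Benjamini-Hochberg adjustment over the 8), the smallest p that this test can give with 3 against 3 livers. The Ms4a4a pairs have no ratio, because of its count of 0.

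**Figure D3:**
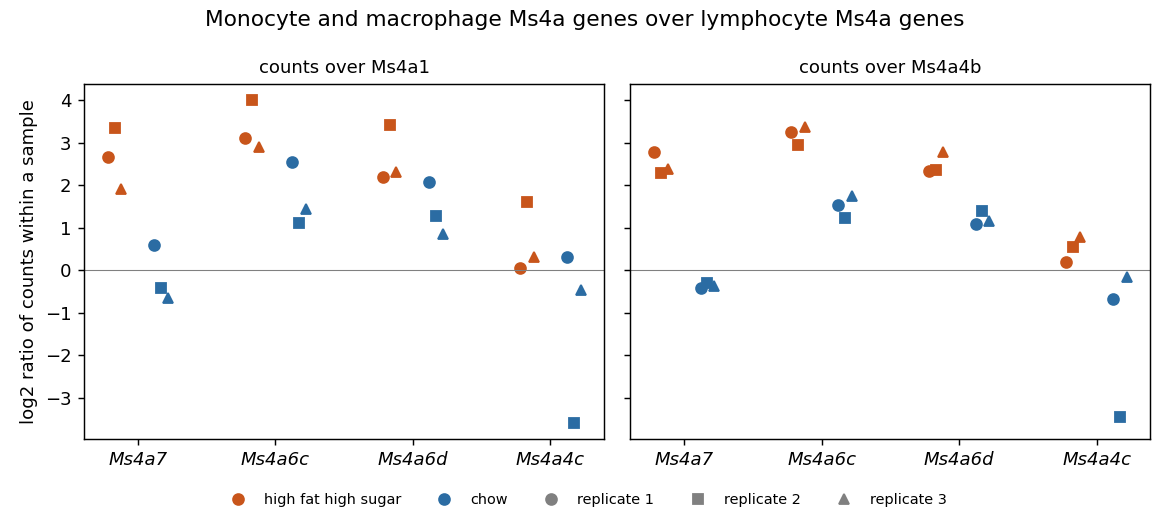
Log2 ratio of the counts of 4 monocyte and macrophage members to those of Ms4a1 (left) and Ms4a4b (right) within each liver, HFHS in orange and chow in blue, with a symbol for each replicate. Over Ms4a4b the diets are apart for all 4 genes, and over Ms4a1 they overlap for Ms4a4c.

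Leukocyte genes at large were higher in the same livers. For the counts below, 11.0% of all tested genes were called higher, 3.61% lower, and 21.5% had every HFHS liver above every chow liver. Ptprc, which encodes CD45 of all leukocytes, was at 34.9, 72.1 and 28.6 CPM in HFHS livers and at 12.1, 6.87 and 11.0 CPM in chow livers, a difference of 2.18 ± 0.40 on the log2 scale (SE; edgeR adjusted p = 0.0192). Of 8 pan-leukocyte markers 6 were higher, with a summed level of 142 to 345 CPM in HFHS livers and 40.7 to 71.6 CPM in chow livers. Of 12 macrophage markers 10 were higher, and the summed level of the list was 516 to 1171 CPM in HFHS livers and 209.8 to 272.0 CPM in chow livers. Of 8 monocyte markers 7 were tested and 3 were higher, the chemokine receptors Ccr2 (3.52 ± 0.76 on the log2 scale) and Cx3cr1 (4.43 ± 0.61) and Plac8 (1.70 ± 0.44). The monocyte sum was 35.8 to 109 CPM in HFHS livers and 5.99 to 14.1 CPM in chow livers. Of 9 Kupffer cell markers 5 were higher and 2, the scavenger receptors Cd163 and Marco, were lower. Of 7 markers of lipid-associated macrophages 6 were higher, with a sum of 369 to 973 CPM in HFHS livers and 44.4 to 98.3 CPM in chow livers. Of 7 dendritic cell markers 5 were tested and 4 were higher, and of 6 neutrophil markers 3 were tested. These were above chow in every HFHS liver, with a median log2 fold change of 2.23, but edgeR called 0 of them (3 at an unadjusted p under 0.05), while DESeq2 called 3. The 6 hepatocyte markers had 0 calls, and their sum was lowest in HFHS replicate 2. Without chow replicate 3 edgeR called 0 markers of any of these lists higher, and without chow replicate 2 these lists had 0 pan-leukocyte, 2 macrophage, 1 monocyte, 3 Kupffer cell, 2 lipid-associated macrophage and 0 dendritic cell calls of a rise. Limma-voom called 2 of the lipid-associated markers and 1 of the dendritic cell markers. The part of these cell types in the differences of the Ms4a genes was not tested.

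Set against Ptprc, the members showed 3 patterns. Ms4a7 had 21.4, 20.7 and 18.4 counts per 100 Ptprc counts in HFHS livers and 8.26, 7.20 and 4.27 in chow livers, and was the only member of the 8 for which every HFHS liver was above every chow liver on this measure. It was also above relative to Csf1r, the growth factor receptor of macrophages, with 6.96 ± 2.21 counts per 100 Csf1r counts in HFHS livers and 1.64 ± 0.52 in chow livers (SD, n = 3). Ms4a6c, at 32.9 ± 3.38 per 100 Ptprc counts in HFHS livers and 23.7 ± 7.36 in chow livers, overlapped between the diets, as did Ms4a6d (20.6 ± 4.40 and 19.6 ± 6.41), Ms4a4c, Ms4a4a and Ms4a6b. Both lymphocyte members were lower on this measure in every HFHS liver than in any chow liver. Ptprc itself was higher by 2.18 on the log2 scale, so a gene that rose less than Ptprc tends to be lower on this measure. The log2 fold changes of Ms4a1 and Ms4a4b were 0.97 and 1.02, and the median of all tested genes was -0.02. The share of all genes that were lower on this measure was not computed. Ms4a1 had 3.40, 2.03 and 4.88 counts per 100 Ptprc counts in HFHS livers and 5.50, 9.60 and 6.71 in chow livers. For Ms4a4b these were 3.11, 4.21 and 3.52 in HFHS livers and 11.0, 8.80 and 5.49 in chow livers. These ratios are descriptions and were not tested.

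**Figure D4:**
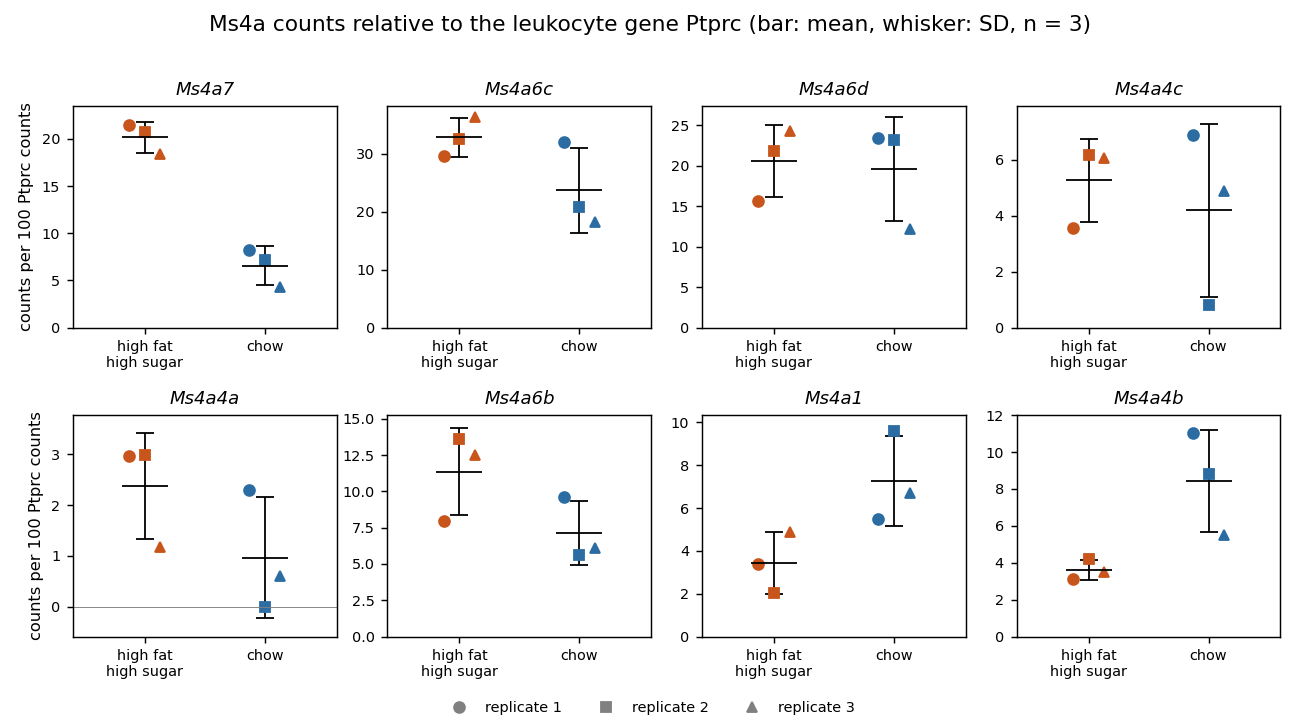
Counts of each member per 100 counts of Ptprc (vertical axis, one scale per gene) in HFHS livers (orange) and chow livers (blue); bar and whisker are mean and SD (n = 3). The diets are apart for Ms4a7, higher in HFHS livers, and for Ms4a1 and Ms4a4b, lower in HFHS livers, and overlap for the other 5 genes.

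Markers of the lymphocyte types were few in counts. Of 12 B cell markers 11 were tested and 2 were higher, Cd22 (2.23 ± 0.39 on the log2 scale) and the complement receptor gene Cr2 (2.23 ± 0.50), which other cells can also express. This is not far from the 11.0% of all tested genes called higher, so the count does not set the list apart. The median log2 fold change of the tested B cell markers was 1.16, against -0.02 for all tested genes, and DESeq2 called 4 higher. The B cell sum was 17.4 to 37.1 CPM in HFHS livers and 10.4 to 11.2 CPM in chow livers. The antigen receptor gene Cd79a was at 0.929, 1.54 and 0.670 CPM in HFHS livers and at 0.723, 0.550 and 0.606 CPM in chow livers, and its log2 fold change of 0.76 ± 0.41 (SE) did not pass (edgeR adjusted p = 0.243). Ms4a1 came to 128, 95.0 and 208 counts per 100 Cd79a counts in HFHS livers and to 92.3, 120 and 122 in chow livers, which overlapped. Of 12 T cell markers 4 were tested and 0 were higher or lower. Cd3e, a chain of the T cell receptor complex, had 4, 29 and 5 counts in HFHS livers and 11, 1 and 2 in chow livers. It was highest in HFHS replicate 2, as were all 8 members, and in chow replicate 1, as were 7 of the 8. This pattern is thus not particular to Cd3e and Ms4a4b. Of 8 NK cell markers 5 were tested and 1, the receptor Ncr1, was higher (2.51 ± 0.49), too few to read against that share. Median log2 fold changes were 0.43 for the tested T cell markers and 1.89 for the NK cell ones. DESeq2 called 0 and 3 of them higher. Without chow replicate 2, and likewise without chow replicate 3, edgeR called 0 B, T and NK cell markers.

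Partners and relatives of the family were also read. Clec7a, which encodes dectin-1, averaged 68.1 ± 51.6 CPM in HFHS livers and 4.93 ± 2.66 CPM in chow livers (SD, n = 3), with a log2 fold change of 3.78 ± 0.66 (SE; edgeR adjusted p = 0.0190). Its log2 fold change was 2.96 without HFHS replicate 2, and it did not pass without chow replicate 2 or 3 or with the replicate number as a block. Trem2, a lipid receptor of macrophages, had a log2 fold change of 4.98 ± 0.92 and Fcer1g, a signalling chain of Fc receptors, one of 1.79 ± 0.27, and both passed the test. Neither passed without chow replicate 3. Trem2 was at 3.85 without HFHS replicate 2 and 5.95 without chow replicate 1, and did not pass without chow replicate 2 or with limma-voom. Kit, a receptor tyrosine kinase of mast cells, was higher by 0.91 ± 0.20, a call lost without HFHS replicate 1 or chow replicate 2 or 3 and with that block. The mast cell and basophil genes Fcer1a, Cpa3, Mcpt4 and Mcpt8 had 0 to 2 counts summed over each diet. Tnfrsf18, which encodes GITR, had 7, 10 and 3 counts in HFHS livers and 3, 3 and 2 in chow livers and was not tested. The relatives Tmem176a and Tmem176b were abundant, at 244 ± 47.9 and 358 ± 107 CPM in HFHS livers and at 194 ± 65.4 and 260 ± 81.6 CPM in chow livers, and neither passed.

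**Figure D5:**
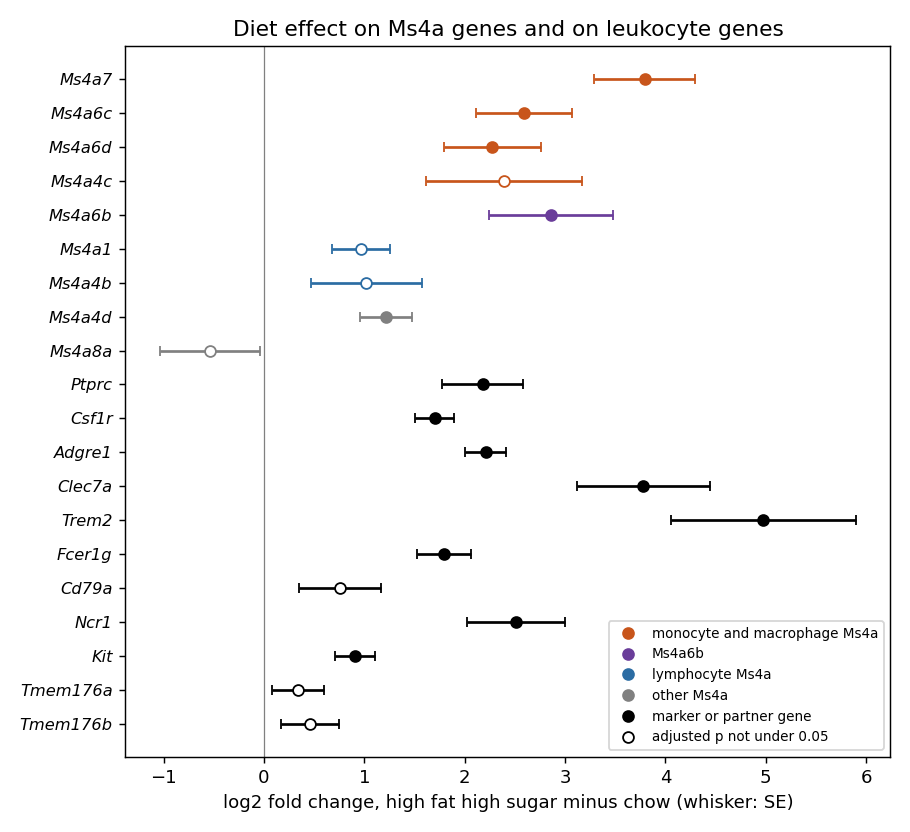
Log2 fold change of HFHS over chow (horizontal axis) with its SE for the 7 tested members, 2 other Ms4a genes and 11 marker or partner genes; open circles did not pass an adjusted p of 0.05. Ms4a7 (3.79) lies beside Clec7a (3.78). Ms4a1 (0.97) and Ms4a4b (1.02) lie near Kit (0.91), Ms4a4d (1.21) and Cd79a (0.76), and below Ncr1 (2.51).

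Of the 9 other Ms4a symbols in the tables, 7 had fewer than 10 counts over all 6 livers. Among them were Ms4a2, the beta chain of the IgE receptor of mast cells, with 2 counts in HFHS livers and 3 in chow livers, and Ms4a3, a gene of marrow progenitors, with 1 count in all. Ms4a4d was the exception that passed. It was at 7.95, 9.31 and 5.97 CPM in HFHS livers and at 3.72, 3.90 and 2.36 CPM in chow livers, a difference of 1.21 ± 0.26 on the log2 scale (SE; edgeR adjusted p = 0.0240). The call was lost without HFHS replicate 1 and without any one of the chow livers (edgeR adjusted p = 0.0551 to 0.0898). Ms4a8a was at 0.413, 0.885 and 0.558 CPM in HFHS livers and at 1.45, 0.495 and 0.808 CPM in chow livers and did not pass. In the 500 kb on either side of the cluster 18 genes were tested, 2 were higher and 0 lower, a share near the 11.0% of all tested genes, with a median log2 fold change of 0.11. These were Slc15a3 (2.20 ± 0.37), a peptide and histidine transporter of immune cells, and Tmem132a (1.95 ± 0.40).

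The genes most like each member over the 6 livers were taken as those with the smallest root mean square difference in log2 CPM, each gene centred on its own mean, among 10988 genes with a mean count of at least 50. For Ms4a7 the nearest was Clec7a, at 0.28 on the log2 scale. For Ms4a6d they were Sash3 (0.11), Cd300c2 (0.12) and Slc15a3 (0.14), and for Ms4a6c the class II genes H2-DMb1 (0.14) and H2-Eb1 (0.16) with Plek (0.15) between them. Ms4a6b was nearest to the chemokine gene Ccl6 (0.14) and stood at 0.19 from Ms4a6c. Ms4a4c had no gene nearer than 0.36, that of Mthfd1l. The lymphocyte members were nearest to other genes, Ms4a1 to Elk3 (0.08) and Ms4a4b to Pde1b (0.15), and stood at 0.57 from each other.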

How the data were processed

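Liver polyA RNA of 3 HFHS and 3 chow samples was analysed. The deposited tables, 1 per sample, hold unnormalised counts for each gene symbol. Per the submitters' processing notes, reads were aligned with STAR to mm10; the program that counted and its annotation were not given in the sources used here. Per the labels' protocols, the library kit was stranded. The rows for reads outside genes (7.74% to 10.6% of counts) and for ambiguous reads (0.615% to 0.862%) were left out. The labels do not say that each sample is its own animal, so the p-values reflect only how these samples vary. Within a diet, counts differed beyond sampling noise (chi-square per gene of at least 23.5).

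Genes were filtered with filterByExpr (minimum count 10), scaled by TMM and compared by the robust quasi-likelihood F test of edgeR, without covariate, with Benjamini-Hochberg adjustment over 12949 genes (edgeR 4.0.16, limma 3.58.1, DESeq2 1.42.0, R 4.3.3). A SE is the log2 fold change divided by the square root of F. The fits were tested on simulated data: edgeR missed most genes changed 2-fold, found most changed 4-fold, and made more false calls than its nominal share, so a missed threshold near 2-fold does not show that values were alike. Lengths and positions come from GENCODE M21 (GRCm38), promoters from RefSeq. Alternatives were other scalings, no filter, DESeq2, limma-voom, no robust estimation, a replicate block and leaving out each sample. Named genes are all 8 members, the other Ms4a genes, a fixed set of markers and partners, and the nearest genes by pattern; other list members named were chosen after their values were seen. Members and lists were chosen with earlier results of these data known.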

Additional observations from a re-analysis of the deposited data

How the results depend on the processing

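All log2 fold changes of the 7 tested members stayed above 0 under every alternative run. With scaling by library size only, the median gene shifted by 0.27 (log2); genes lower fell to 200, against 468 with TMM, and Ms4a1 passed (1.24), as the 1 lymphocyte member called. DESeq2 called 974 genes lower and Ms4a4c higher (2.40). Limma-voom called 2 members, with Ms4a6b (2.82) and Ms4a6d (2.24) not past the threshold. With Ms4a6b counted among the lymphocyte genes that group had 1 call. The replicate numbers did not pair the samples (correlations of deviations of -0.255, -0.171 and 0.0264); with the replicate block 282 genes were lower and 1 member, of the monocyte and macrophage kind, was called, Ms4a6b (2.68), Ms4a6c (2.55) and Ms4a6d (2.19) missing the threshold. The cause of these changes was not tested.

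Leaving out each sample in turn gave 4 to 1664 genes higher and 2 to 772 lower, 0 to 5 members higher and 0 to 4 of the monocyte and macrophage kind, the upper ends including Ms4a4a, which then passed the filter and the test without HFHS replicate 3 (3.70). Lymphocyte calls stayed at 0. The log2 fold changes ranged from 3.26 to 4.23 for Ms4a7, 2.08 to 3.10 for Ms4a6c, 1.68 to 2.66 for Ms4a6d, 2.10 to 3.36 for Ms4a6b, 1.65 to 3.12 for Ms4a4c, 0.91 to 1.05 for Ms4a1 and 0.30 to 1.50 for Ms4a4b. Without chow replicate 1, 762 genes were higher and 177 lower, and without chow replicate 2, 345 and 113. With the longest transcript as length, Ms4a1 was at 0.438 and Ms4a4b at 0.360 CPM per kb in HFHS livers, and in chow livers Ms4a6d came before Ms4a6c. Depth limits Ms4a4a, Ms4a4c, Ms4a6b, Ms4a7 and the lymphocyte genes, called or not, which had 6 to 44 counts over all chow livers.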
